A study of Gallus gallus with 8 samples.

Results

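Ion channel genes were compared between early otic and epibranchial cells of the chick, the precursors of the inner ear and of the sensory ganglia next to it. The members were the rows of the count table whose gene name begins with the stem of a potassium, calcium or sodium channel gene family, or names a TRP channel, a CLC channel or exchanger, a P2X receptor, a connexin or a PIEZO channel. This gave 149 of the 24356 genes listed. The rule uses names and no measured value. The TRP stem also takes in TRPC4AP, which encodes a ubiquitin ligase adaptor and not a channel. Connexins, which are counted among the channels here, form the gap junctions between cells.

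The 8 libraries are bulk RNAseq of chick embryo cells that expressed EGFP from an enhancer reporter plasmid. 4 libraries came from Lmx1aE1-EGFP+ cells, named otic by the labels, and 4 from Sox3U3-EGFP+ cells, named epibranchial. The sources name no mutation and no drug treatment. Plasmid was introduced by in ovo electroporation at ss3 to ss5 by the labels (ss3 to ss6 by the study's methods), embryos were collected at ss18 to ss21, and each library was made from 2000 cells sorted by FACS (ss, somite stage). The study describes both a dissected ear region and whole heads as the tissue taken, so that it is not settled which other cells the sort started from. Both groups thus carried a reporter plasmid, and each group holds whatever electroporated cells switched on that enhancer at the level of the sorting gate. In bulk samples, fewer cells of a type and less RNA per cell cannot be told apart.

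Ion channels set the membrane potential of a cell and pass the currents behind hair cell transduction and neuronal firing. Voltage-gated pores open as the membrane depolarises, inward rectifiers and KCNK leak channels hold the resting potential, and accessory subunits tune the pores. In the mature inner ear, potassium channels and connexins also serve the circulation of potassium between the sensory epithelium and the endolymph. None of these electrical functions was measured here, and the values below are transcript counts.

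Library totals were 6559872 to 24173945 counts in Lmx1aE1-EGFP+ libraries and 9388922 to 45183366 counts in Sox3U3-EGFP+ libraries, so that 1 CPM (a count scaled to the TMM-normalised library total) stood for 6.6 to 45.8 counts. Channel genes took 0.16% to 0.181% of the counts of a library. Sox3U3-EGFP replicate 4 stood farthest from its group over the tested members (mean correlation 0.880, against 0.907 to 0.930 in the other 7 libraries). For the named genes described below, a change of call without this library is stated. The otic vesicle markers summed to 1110 to 1360 CPM in Lmx1aE1-EGFP+ libraries and to 469 to 563 CPM in Sox3U3-EGFP+ libraries, and the epibranchial markers to 51.2 to 59.4 CPM in Lmx1aE1-EGFP+ and 251 to 275 CPM in Sox3U3-EGFP+ libraries. Other marker lists also differed between the groups. Epidermal markers summed to 750 to 1110 CPM in Lmx1aE1-EGFP+ libraries and 3870 to 4970 CPM in Sox3U3-EGFP+ libraries. At an adjusted p below 0.05 in edgeR's test, 9 of 12 tested were lower in Lmx1aE1-EGFP+ cells, against 11.3% of all tested genes. Neural crest markers summed to 980 to 1070 CPM in Lmx1aE1-EGFP+ and 328 to 424 CPM in Sox3U3-EGFP+ libraries. At the same threshold 9 of 12 tested were higher and 1 lower in Lmx1aE1-EGFP+ cells, against 12.1% and 11.3% of all tested genes. Which cells carried these markers was not tested, nor was their part in the differences below.

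Nearly every channel gene had reads. 148 of the 149 members had over 3 counts in at least 1 library, and 119 had over 3 counts in all 8. The exception was CACNG7, a regulator of AMPA receptors, with at most 3 counts in every library. A library held 128 to 147 members over 3 counts at full depth and 123 to 131 once every library was thinned to the smallest total. At full depth 121 members passed that minimum in all 4 Lmx1aE1-EGFP+ libraries and 130 in all 4 Sox3U3-EGFP+ libraries, whereas after thinning 111 passed it in all 4 Lmx1aE1-EGFP+ and 114 in all 4 Sox3U3-EGFP+ libraries. Detection was thus much alike at equal depth.

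129 members passed the filter on low counts and entered the test. A gene can pass that filter through the group where it is high, so that counts over these members describe them and carry no further weight. The other 20 are the 19 genes with over 3 counts in some library but too few for the test, and CACNG7. Precision depended on the level. The 37 tested members under 2 CPM had a median standard error (SE) of 0.49 on the log2 scale and 2 passed an adjusted p of 0.05, both lower. The 66 members at 2 to 10 CPM had a median SE of 0.3 and 11 passed, 1 higher and 10 lower. The 26 members over 10 CPM had a median SE of 0.18 and 9 passed, 5 higher and 4 lower. CPM is not corrected for transcript length, so levels are compared between libraries and not between genes, and mean CPM served only to choose which genes of a class to describe.

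**Figure D1:**
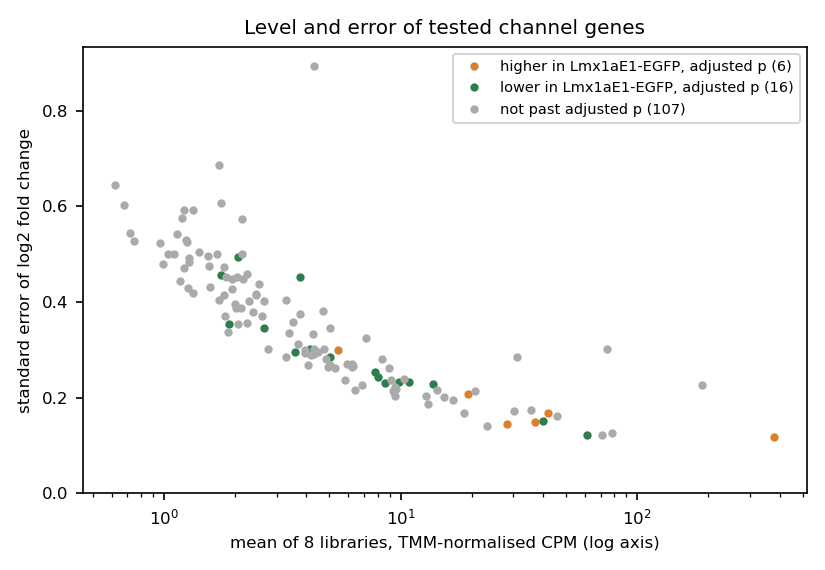
Standard error of the log2 fold change (y axis) against mean level in CPM (x axis, log scale) for the 129 tested channel genes. The median standard error is 0.49 under 2 CPM and 0.18 over 10 CPM, so that small differences could be resolved only for the higher genes.

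Among the channel genes, those that passed both thresholds in edgeR's test with all 8 libraries were lower in the otic cells. A pair of thresholds was used, an adjusted p below 0.05 and a log2 fold change beyond 1.5 in either direction. Past both, no tested member was higher in Lmx1aE1-EGFP+ cells, which is near the background, since only 0.712% of all 16861 tested genes were. All tested genes leaned the same way past both, with 416 lower and 120 higher. 7 tested members, or 5.43%, were lower, against 2.47% of all tested genes. KCNJ16, KCNF1, KCNIP1, GJB6, KCNA2 and GJB5 were among them. With the adjusted p alone, 6 members (4.65%) were higher, against 12.1% of all tested genes, and 16 (12.4%) were lower, against 11.3%. The share with a lower call at that threshold was therefore near the background, and the share with a higher call was under it. These shares of all tested genes are also the background for the counts of calls in each class and marker list. The absence of a higher call past both thresholds depended on the settings, since 1 or 2 members, GJA5, KCNJ3 or KCNS1, passed in some alternatives. GJB1 passed only where the log2 fold change threshold was lowered to 1. At an unadjusted p below 0.05 in edgeR's test 0 members lay above a log2 fold change of 1.5, and DESeq2 placed 0 and limma-voom with sample quality weights 1 past both thresholds.

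The groups did not overlap, all 4 libraries of a group lying on the same side of the other 4, for 3 members that were higher (2.33%, against 13.7% of all tested genes) and for 19 that were lower (14.7%, against 12.3%). With 4 libraries against 4, such a separation gives the smallest p of a two-sided exact permutation test, 0.0286. The median log2 fold change was -0.18 over the tested members and -0.04 over all tested genes, and 87 of the 129 members (67.4%) had a value below 0, against 53.4% of all tested genes. Most of these members were not called. Values below 0 were 15 of 18 for TRP channels, 7 of 8 for sodium channel pores and 6 of 7 for CLC proteins (class median -0.11), against 4 of 9 for connexins (median 0.35), 3 of 6 for P2X receptors (median 0.02), 3 of 6 for calcium channel pores and 1 of 3 for alpha-2-delta subunits. Among potassium channel genes they were 21 of 31 for voltage-gated pores and 5 of 6 for their accessory subunits. Inward rectifiers had 6 of 9, leak channels 5 of 8, and channels opened by calcium or sodium 4 of 7. Calcium channel beta subunits had 3 of 3, the calcium channel gamma family 2 of 4 and sodium channel beta subunits 1 of 2.

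**Figure D2:**
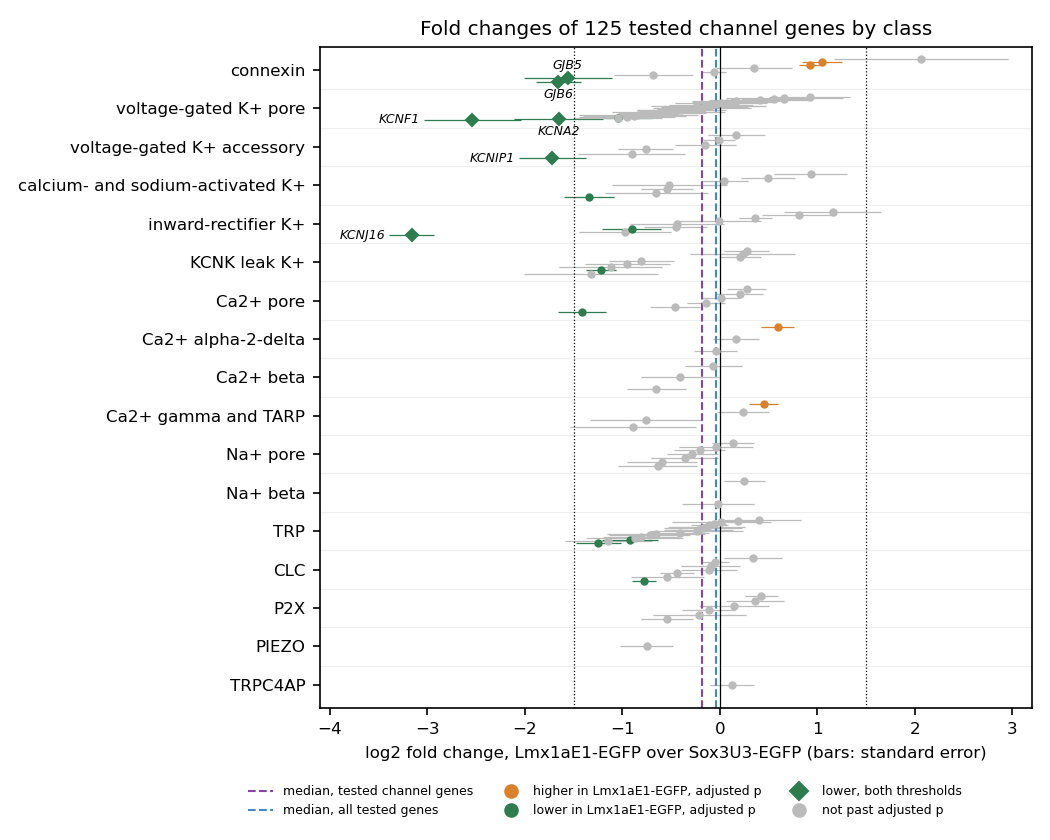
Log2 fold change, Lmx1aE1-EGFP over Sox3U3-EGFP (x axis), of 125 tested channel genes by class (y axis), with the standard error as a bar. The 6 genes drawn that passed both thresholds are named and all lie left of -1.5, and the dashed lines mark the medians of -0.18 for all 129 tested channel genes and -0.04 for all tested genes.

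Gap junction genes moved in both directions, with 3 of 9 tested higher and 2 lower by the adjusted p. Of all tested genes, 12.1% were higher and 11.3% lower. GJA1, the most widely expressed connexin of vertebrate tissues (ENSGALG00000014873), had 541, 539, 487 and 419 CPM in the 4 Lmx1aE1-EGFP+ libraries, against 212, 262, 314 and 258 CPM in the 4 Sox3U3-EGFP+ libraries. All otic libraries lay above all epibranchial libraries. The means were 497 ± 57.3 CPM in Lmx1aE1-EGFP+ cells and 261 ± 41.5 CPM in Sox3U3-EGFP+ cells (SD, n = 4 each). The log2 fold change was 0.93 (SE 0.118, adjusted p = 3.48e-05). GJA1 held 68% to 79.1% of the summed connexin CPM, not corrected for length, in Lmx1aE1-EGFP+ libraries and 59.8% to 69.2% in Sox3U3-EGFP+ libraries. The sum over the 12 connexin genes followed it, at 651.3 ± 37.12 CPM in Lmx1aE1-EGFP+ cells and 404.8 ± 40.31 CPM in Sox3U3-EGFP+ cells (SD, n = 4 each), without overlap.

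GJB1 was also higher in otic cells. GJB1, the connexin of myelinating Schwann cells and liver in mammals (ENSGALG00000005541), had 24.9, 25, 21.2 and 33.1 CPM in Lmx1aE1-EGFP+ libraries, against 16, 10.1, 15.1 and 9.11 CPM in Sox3U3-EGFP+ libraries. The groups were separate, with a log2 fold change of 1.05 (SE 0.207, adjusted p = 0.00157).

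Of the connexins of stratified epithelia, GJB6 and GJB5 were lower in otic cells. GJB6, known for mutations in human hereditary deafness and skin disease (ENSGALG00000017136), had 3.01, 5.61, 3.82 and 4.11 CPM in Lmx1aE1-EGFP+ libraries, against 11.4, 11.2, 14.2 and 15.3 CPM in Sox3U3-EGFP+ libraries. No otic library reached the lowest epibranchial library. The means of 4.14 ± 1.08 CPM in Lmx1aE1-EGFP+ cells and 13 ± 2.03 CPM in Sox3U3-EGFP+ cells (SD, n = 4 each) gave a log2 fold change of -1.66 (SE 0.231, adjusted p = 7.97e-05). GJB5, an epidermal connexin in mammals (ENSGALG00000054289), had 1.44, 2.73, 1.33 and 2.17 CPM in Lmx1aE1-EGFP+ libraries and 4.58, 3.03, 2.84 and 12 CPM in Sox3U3-EGFP+ libraries. The groups were close, and Sox3U3-EGFP replicate 4 carried much of the difference. The log2 fold change of -1.56 (SE 0.452, adjusted p = 0.0204) became -0.91 (adjusted p = 0.0893) without that library, and the adjusted p was 0.0649 without Lmx1aE1-EGFP replicate 1 and 0.0746 without Lmx1aE1-EGFP replicate 3. GJB2, the partner of GJB6 in the mammalian cochlea and its neighbour in the genome, had too few counts for a test (2, 1, 0 and 9 counts in Lmx1aE1-EGFP+ libraries, 21, 4, 0 and 6 counts in Sox3U3-EGFP+ libraries).

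GJC1, a broadly expressed connexin, had 67.9 to 95.3 CPM in Lmx1aE1-EGFP+ libraries and 75.8 to 89.8 CPM in Sox3U3-EGFP+ libraries, so that the groups overlapped (log2 fold change -0.06, SE 0.126, adjusted p = 0.767). GJA5, a connexin of arterial endothelium and atrial muscle, is a member that the rule for genes described singly does not take, and it was chosen after its values were seen. It had 3.93, 1.21, 4.32 and 17.9 CPM in Lmx1aE1-EGFP+ libraries and 1.2, 1.35, 0.42 and 4.15 CPM in Sox3U3-EGFP+ libraries, with the highest value of each group in replicate 4. Its log2 fold change of 2.06 had an SE of 0.894 and did not pass the test (adjusted p = 0.145), and without Lmx1aE1-EGFP replicate 4 it was 0.91. The same library had the highest sum of endothelial and blood markers, 538 CPM, of which 371 CPM were the embryonic globin HBZ. The sums were 83.7 to 193 CPM in the other Lmx1aE1-EGFP+ libraries and 207 to 284 CPM in Sox3U3-EGFP+ libraries. HBZ itself ranged from 1.5 to 103 CPM in the other Lmx1aE1-EGFP+ libraries and from 1.6 to 144 CPM in Sox3U3-EGFP+ libraries. By the adjusted p, 2 of 8 tested markers of this list were lower in Lmx1aE1-EGFP+ cells, KDR and EGFL7 (log2 fold changes -1.31 and -0.95), and 0 higher. Of all tested genes, 11.3% were lower and 12.1% higher. The part of endothelial and blood cells in the GJA5 values was not tested. GJA4 and GJA9 were tested and not called, and GJA3, a lens connexin, had too few counts.

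**Figure D3:**
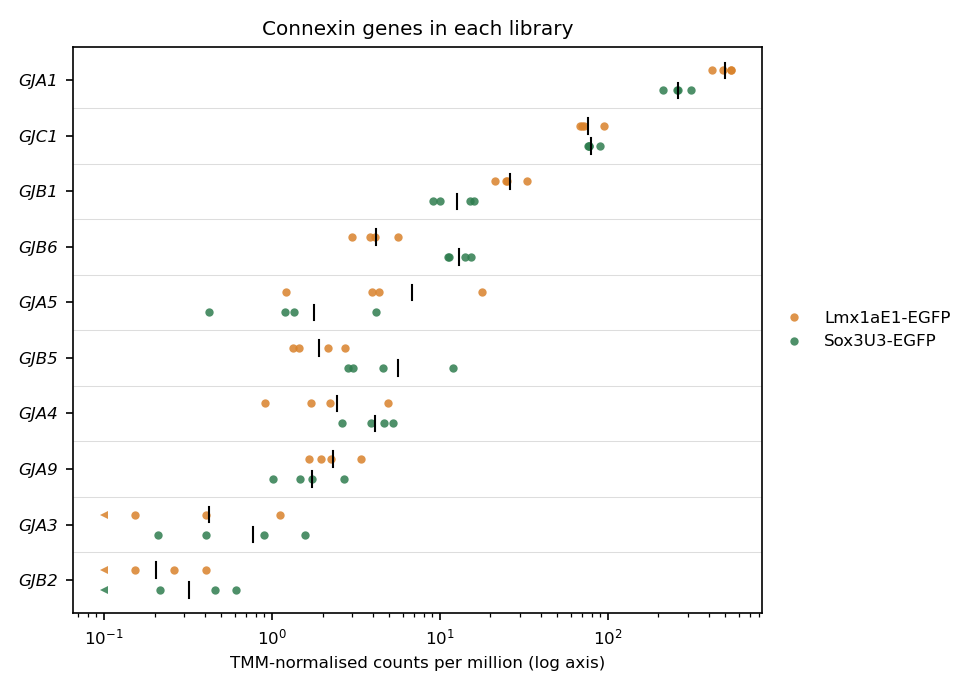
CPM (x axis, log scale) of 10 connexin genes (y axis), with a point for each library, Lmx1aE1-EGFP above Sox3U3-EGFP for each gene, bars at the group means and triangles at the left edge for libraries at 0. GJA1 stands at 419 to 541 CPM in otic libraries and 212 to 314 CPM in epibranchial libraries, while GJB6 runs the other way.

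The channel gene that differed most was KCNJ16. Its product is an inward rectifier subunit that passes little current alone and forms acid-sensitive channels with partners of the same family. KCNJ16 (ENSGALG00000004373) had 2.23, 3.03, 2.24 and 3.43 CPM in Lmx1aE1-EGFP+ libraries, against 26.3, 24, 18.2 and 30 CPM in Sox3U3-EGFP+ libraries. The highest otic library was far under the lowest epibranchial library. The means were 2.73 ± 0.599 CPM in Lmx1aE1-EGFP+ cells and 24.6 ± 4.94 CPM in Sox3U3-EGFP+ cells (SD, n = 4 each), with a log2 fold change of -3.16 (SE 0.228, adjusted p = 1.01e-07). KCNJ2, an inward rectifier of heart and muscle that neighbours KCNJ16 in the genome, was not called (log2 fold change -0.45, adjusted p = 0.344).

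The other inward rectifiers differed less. KCNJ15 (ENSGALG00000016055) had 1.96, 3.18, 3.57 and 2.62 CPM in Lmx1aE1-EGFP+ libraries and 3.58, 6.7, 6.51 and 4.86 CPM in Sox3U3-EGFP+ libraries. The groups met within rounding, at 3.57 CPM in Lmx1aE1-EGFP replicate 3 and 3.58 CPM in Sox3U3-EGFP replicate 1, and the log2 fold change of -0.90 (SE 0.301, adjusted p = 0.0383) lost its call without Lmx1aE1-EGFP replicates 1, 2 or 4 or Sox3U3-EGFP replicates 2 or 3 (adjusted p 0.0703 to 0.117). KCNJ5, a pore of G protein-gated channels, had 15.6 to 24.3 CPM in Lmx1aE1-EGFP+ libraries and 15 to 17 CPM in Sox3U3-EGFP+ libraries, which overlapped (log2 fold change 0.36, SE 0.168, adjusted p = 0.132). The summed CPM of the 11 inward rectifiers was 45.42 ± 4.862 CPM in Lmx1aE1-EGFP+ cells and 65.34 ± 1.613 CPM in Sox3U3-EGFP+ cells (SD, n = 4 each). Without KCNJ16 the other 10 summed to 42.7 ± 4.6 CPM in Lmx1aE1-EGFP+ cells and 40.7 ± 6.45 CPM in Sox3U3-EGFP+ cells (SD, n = 4 each), which lay within 1 SD of each other.

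Among the leak channels KCNK1, a weakly conducting subunit, was lower in otic cells. KCNK1 (ENSGALG00000011005) had 24.7, 22.1, 20 and 28.6 CPM in Lmx1aE1-EGFP+ libraries, against 48, 54.3, 53.2 and 67.6 CPM in Sox3U3-EGFP+ libraries. The groups were well separated, with means of 23.9 ± 3.69 CPM in Lmx1aE1-EGFP+ cells and 55.8 ± 8.35 CPM in Sox3U3-EGFP+ cells (SD, n = 4 each) and a log2 fold change of -1.22 (SE 0.151, adjusted p = 2.63e-05). KCNK2, a leak channel opened by stretch and lipids, was not called. It had 8.13 to 11.4 CPM in Lmx1aE1-EGFP+ libraries and 6.86 to 11 CPM in Sox3U3-EGFP+ libraries (log2 fold change 0.21, adjusted p = 0.523). KCNK1 was the only 1 of 8 tested leak channels to pass the adjusted p, and 4 more had too few counts. The class median was -0.88.

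Voltage-gated potassium pores formed the largest class, with 34 members of which 31 were tested. By the adjusted p, 3 were lower and 1 higher, where 11.3% of all tested genes were lower and 12.1% higher. KCNF1 encodes a silent pore subunit that conducts nothing alone and changes the currents of other pores. KCNF1 (ENSGALG00000016448) had 1.31, 0.152, 0.498 and 0.497 CPM in Lmx1aE1-EGFP+ libraries, against 2.95, 3.13, 2.1 and 5.77 CPM in Sox3U3-EGFP+ libraries. These are low values, down to 1 count in Lmx1aE1-EGFP replicate 2, yet the groups did not overlap (log2 fold change -2.54, SE 0.493, adjusted p = 0.00135).

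KCNA2, a Shaker-type pore of axons, and KCNQ1 were also lower. KCNA2 (ENSGALG00000000442) had 1.05, 1.67, 0.457 and 0.497 CPM in Lmx1aE1-EGFP+ libraries, against 2.2, 3.13, 2.1 and 2.83 CPM in Sox3U3-EGFP+ libraries. The groups were separate (log2 fold change -1.65, SE 0.456, adjusted p = 0.0143), but without Lmx1aE1-EGFP replicate 3 the adjusted p was 0.0607. KCNQ1, which with a KCNE subunit secretes potassium into the endolymph of the mature ear, had 1.18, 0.909, 1.37 and 1.35 CPM in Lmx1aE1-EGFP+ libraries and 2.73, 1.89, 2.63 and 3.04 CPM in Sox3U3-EGFP+ libraries. It was separate at every library (log2 fold change -1.05, SE 0.354, adjusted p = 0.0409), but its call was lost without Lmx1aE1-EGFP replicates 1, 2 or 3 or Sox3U3-EGFP replicates 1, 3 or 4 (adjusted p 0.0702 to 0.109). After thinning it was -0.41 (adjusted p = 0.492). KCNH6 and KCND1 overlapped between the groups and were not called (log2 fold changes 0.07 and -0.05, adjusted p = 0.836 and 0.898). KCND1 belongs to the A-type pores that KCNIP proteins bind.

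Among the proteins that bind voltage-gated pores, KCNIP1 stood apart. This calcium-binding subunit raises A-type currents of KCND pores. KCNIP1 (ENSGALG00000002132) had 0.917, 1.97, 1.16 and 1.04 CPM in Lmx1aE1-EGFP+ libraries, against 5.26, 3.51, 3.68 and 3.64 CPM in Sox3U3-EGFP+ libraries. The groups were separate, with a log2 fold change of -1.72 (SE 0.345, adjusted p = 0.00172). KCNAB1 and KCNAB2 encode beta subunits of Shaker-type channels. KCNAB1 had 15.1, 22.7, 29.1 and 24.8 CPM in Lmx1aE1-EGFP+ libraries and 44.5, 55, 36.9 and 19.7 CPM in Sox3U3-EGFP+ libraries, and only Sox3U3-EGFP replicate 4 fell into the otic range. It was not called in edgeR's test with all 8 libraries at full depth (log2 fold change -0.76, SE 0.286, adjusted p = 0.0788), and without that library it was (-0.97, adjusted p = 0.00193). KCNAB1 was also called lower with DESeq2, with limma-voom, after thinning and in the deeper libraries of each group. KCNAB2 was at 34.4 to 60.3 CPM in Lmx1aE1-EGFP+ libraries and 39.6 to 51 CPM in Sox3U3-EGFP+ libraries (log2 fold change -0.01, adjusted p = 0.977). The 3 KCNE genes in the table had too few counts for the test.

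Of the potassium channels opened by calcium or sodium, KCNT1 was lower. KCNT1 encodes a sodium-activated pore of neurons (ENSGALG00000001645). It had 6.15, 4.7, 3.41 and 3.79 CPM in Lmx1aE1-EGFP+ libraries, against 13.9, 12.6, 8.19 and 9.41 CPM in Sox3U3-EGFP+ libraries, without overlap (log2 fold change -1.34, SE 0.254, adjusted p = 0.0011). Its paralogue KCNT2 had 5.11 to 14.1 CPM in Lmx1aE1-EGFP+ libraries and 5.73 to 8.2 CPM in Sox3U3-EGFP+ libraries and was not called with all libraries (log2 fold change 0.49, SE 0.281, adjusted p = 0.225). It was called without Lmx1aE1-EGFP replicate 4 (0.72, adjusted p = 0.0438). The pore of large-conductance calcium-activated channels, written kcnma1 in the table and known for electrical tuning of chick hair cells, had 7.09 to 14.9 CPM in Lmx1aE1-EGFP+ libraries and 7.78 to 12.5 CPM in Sox3U3-EGFP+ libraries (log2 fold change 0.05, SE 0.239, adjusted p = 0.91).

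**Figure D4:**
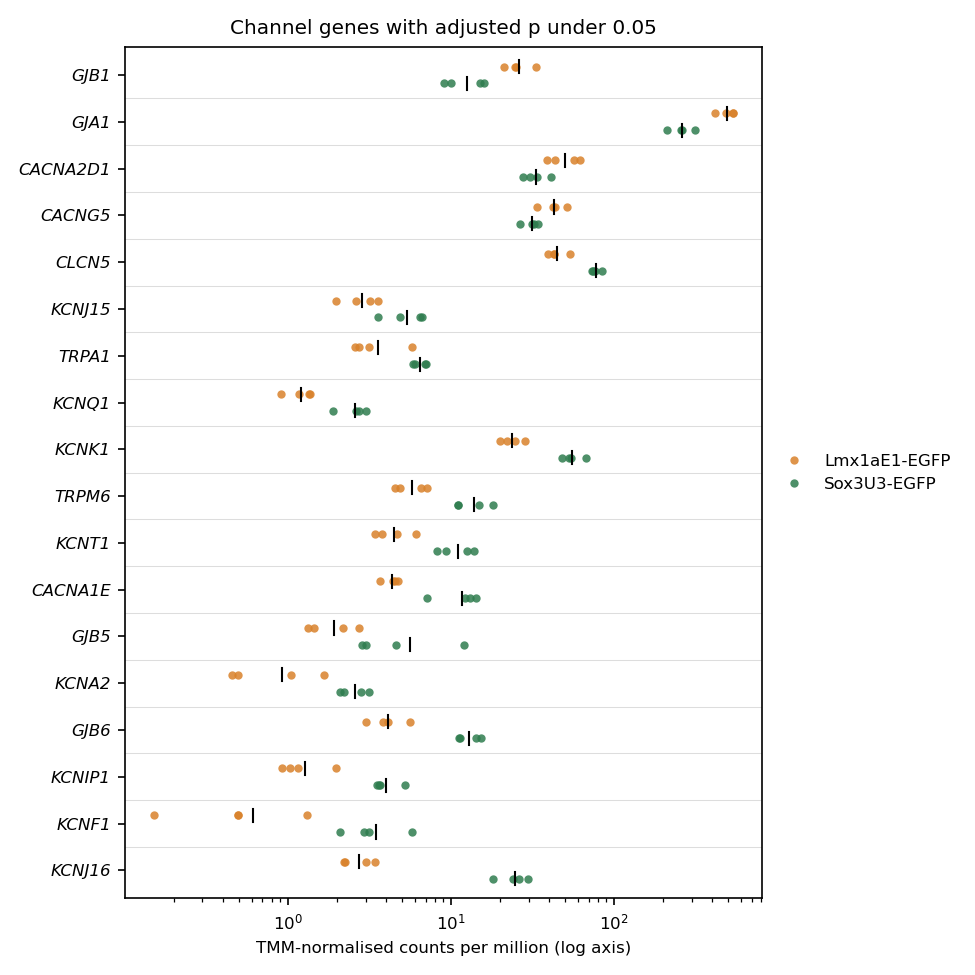
CPM of 18 of the channel genes called by the adjusted p in each of the 8 libraries (x axis, log scale), with Lmx1aE1-EGFP libraries above Sox3U3-EGFP libraries for each gene (y axis) and bars at the group means. KCNJ16 shows the widest gap, with 2.23 to 3.43 CPM in otic libraries and 18.2 to 30 CPM in epibranchial libraries.

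Most calcium channel pores were not called, which does not show that their levels were equal. Of 6 tested pores, CACNA1E, the R-type pore of neurons (ENSGALG00000003833), passed the test. It had 3.67, 4.55, 4.44 and 4.74 CPM in Lmx1aE1-EGFP+ libraries, against 12.3, 7.19, 13.1 and 14.4 CPM in Sox3U3-EGFP+ libraries. The groups were separate and the otic libraries varied little among themselves, at 4.35 ± 0.473 CPM in Lmx1aE1-EGFP+ cells and 11.8 ± 3.16 CPM in Sox3U3-EGFP+ cells (SD, n = 4 each; log2 fold change -1.42, SE 0.244, adjusted p = 0.000516). CACNA1D, whose L-type channel drives transmitter release from hair cells, had 13.2 to 20.3 CPM in Lmx1aE1-EGFP+ libraries and 13.6 to 22.6 CPM in Sox3U3-EGFP+ libraries (log2 fold change -0.14, adjusted p = 0.639). CACNA1G, a T-type pore, had 14.8 to 16.2 CPM in Lmx1aE1-EGFP+ libraries and 10.1 to 19.2 CPM in Sox3U3-EGFP+ libraries (log2 fold change 0.01, adjusted p = 0.987).

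Accessory calcium channel subunits gave a pair of small higher calls. CACNA2D1, an alpha-2-delta subunit that carries pores to the membrane (ENSGALG00000008486), had 57.3, 62, 43.4 and 39.1 CPM in Lmx1aE1-EGFP+ libraries and 30.8, 27.8, 33.8 and 41.3 CPM in Sox3U3-EGFP+ libraries. The groups overlapped at 1 library on each side (log2 fold change 0.59, SE 0.167, adjusted p = 0.0165), and the adjusted p was 0.0525 without Lmx1aE1-EGFP replicate 1, 0.0594 without Lmx1aE1-EGFP replicate 2 and 0.0505 without Sox3U3-EGFP replicate 2. CACNG5, of the family of AMPA receptor regulators (ENSGALG00000003911), had 43.5, 42.3, 33.7 and 51.9 CPM in Lmx1aE1-EGFP+ libraries and 32.5, 34.4, 31.5 and 26.6 CPM in Sox3U3-EGFP+ libraries. It also overlapped (log2 fold change 0.45, SE 0.149, adjusted p = 0.0376), and the call was lost without Lmx1aE1-EGFP replicates 1, 2 or 4 or Sox3U3-EGFP replicates 1, 3 or 4 (adjusted p 0.0603 to 0.11). CACNA2D3, CACNG4, CACNB2 and CACNB4 were not called, with log2 fold changes of -0.04, 0.24, -0.65 and -0.07.

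Of the neuronal sodium channel genes, SCN8A and SCN3B overlapped between the groups. SCN8A, a pore of the axon initial segment, had 14.8, 17, 14.3 and 13.4 CPM in Lmx1aE1-EGFP+ libraries and 8.14, 16.6, 13.7 and 15.8 CPM in Sox3U3-EGFP+ libraries (log2 fold change 0.14, SE 0.216, adjusted p = 0.687). SCN3B, a beta subunit, had 14.3 to 30.1 CPM in Lmx1aE1-EGFP+ libraries and 14.9 to 24.2 CPM in Sox3U3-EGFP+ libraries (log2 fold change 0.25, SE 0.213, adjusted p = 0.427). In the 2 deeper libraries of each group SCN3B was called higher (0.74, adjusted p = 0.0288). SCN4B was not called either (log2 fold change -0.02). Markers of differentiating neurons had 0 of 10 tested past an adjusted p of 0.05 in edgeR's test (1 at an unadjusted p below 0.05). By the adjusted p, DESeq2 and limma-voom gave 0 each. The median log2 fold change was 0.02, with sums of 611 to 757 CPM in Lmx1aE1-EGFP+ libraries and 563 to 723 CPM in Sox3U3-EGFP+ libraries. TUBB3 was the largest part of each sum, at 390 to 568 CPM in Lmx1aE1-EGFP+ libraries and 397 to 449 CPM in Sox3U3-EGFP+ libraries. POU4F1, INA and NEUROG1 had too few counts for the test.

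All 18 TRP channels were tested, of which 3 were lower and 0 higher in edgeR's test (4 and 0 at an unadjusted p below 0.05). By the adjusted p of either DESeq2 or limma-voom, 3 were lower and 0 higher. Of all tested genes, 11.3% were lower and 12.1% higher by the adjusted p. TRPM6 and TRPM7 are magnesium-permeable channels fused to a kinase. TRPM6 (ENSGALG00000015154) had 6.55, 4.55, 4.86 and 7.18 CPM in Lmx1aE1-EGFP+ libraries, against 11.1, 15, 11.1 and 18.2 CPM in Sox3U3-EGFP+ libraries, without overlap (log2 fold change -1.25, SE 0.233, adjusted p = 0.00101). TRPM7 had 61.6 to 74.9 CPM in Lmx1aE1-EGFP+ libraries and 65.6 to 86.5 CPM in Sox3U3-EGFP+ libraries, with overlap (log2 fold change -0.06, SE 0.122, adjusted p = 0.771). These paralogues thus differed in whether they were called, but the difference between them was not tested.

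TRPA1, a sensor of irritants (ENSGALG00000034751), had 3.14, 5.76, 2.74 and 2.58 CPM in Lmx1aE1-EGFP+ libraries and 6.94, 6.05, 7.04 and 5.87 CPM in Sox3U3-EGFP+ libraries. The groups were just separate, since Lmx1aE1-EGFP replicate 2 came close to Sox3U3-EGFP replicate 4 (log2 fold change -0.92, SE 0.286, adjusted p = 0.0272). The call was lost without Lmx1aE1-EGFP replicates 1, 3 or 4 or Sox3U3-EGFP replicates 1 or 3 (adjusted p 0.0589 to 0.0924). TRPC1 was not called (log2 fold change -0.11, adjusted p = 0.722).

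PIEZO2, the mechanically gated channel of touch receptors and the only PIEZO gene matched, had 3.93, 5.3, 5.03 and 4.16 CPM in Lmx1aE1-EGFP+ libraries and 6.22, 4.97, 10.1 and 10.1 CPM in Sox3U3-EGFP+ libraries. Only Sox3U3-EGFP replicate 2 lay in the otic range. The log2 fold change of -0.75 (SE 0.271, adjusted p = 0.0554) just missed the threshold, and without that library it passed (-0.92, adjusted p = 0.0233). It also passed with DESeq2, with library size only, with at least 10 counts in every library and after thinning (adjusted p 0.0378 to 0.0458), and over all 18 alternatives its log2 fold change ran from -1.13 to -0.27. The candidate pores of hair cell transduction, TMC1 and TMC2, belong to the list of other channels below and were not called.

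Of the 7 CLC proteins 1 was called, CLCN5, an endosomal exchanger of chloride and protons (ENSGALG00000007234). It had 43.2, 43.2, 39.6 and 53.7 CPM in Lmx1aE1-EGFP+ libraries, against 74.7, 73.6, 76.4 and 84.7 CPM in Sox3U3-EGFP+ libraries. The groups were far apart for their spread, at 44.9 ± 6.08 CPM in Lmx1aE1-EGFP+ cells and 77.3 ± 5.04 CPM in Sox3U3-EGFP+ cells (SD, n = 4 each; log2 fold change -0.78, SE 0.123, adjusted p = 0.000243). CLCN7, the lysosomal exchanger, overlapped widely, with 75, 71.5, 80.2 and 107 CPM in Lmx1aE1-EGFP+ libraries and 84.4, 91, 54.8 and 32.8 CPM in Sox3U3-EGFP+ libraries. It was not called (log2 fold change 0.34, SE 0.301, adjusted p = 0.47), and Sox3U3-EGFP replicate 4 was the lowest of all.

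ATP-gated P2X receptors gave 0 calls in edgeR's test among 6 tested (1 higher at an unadjusted p below 0.05). By the adjusted p, DESeq2 and limma-voom gave 0 each. P2RX4, a receptor found on many cell types, had 29.7, 36.7, 35.3 and 36.4 CPM in Lmx1aE1-EGFP+ libraries and 25.3, 34.6, 23.8 and 18.7 CPM in Sox3U3-EGFP+ libraries. Sox3U3-EGFP replicate 2 lay within the otic range (log2 fold change 0.43, SE 0.172, adjusted p = 0.0847), and without it the gene was called (0.61, adjusted p = 0.0157). P2RX3, the receptor of sensory neurons, had 4.39 to 7.86 CPM in Lmx1aE1-EGFP+ libraries and 4.2 to 8.4 CPM in Sox3U3-EGFP+ libraries (log2 fold change -0.11, adjusted p = 0.801). P2RX2, its partner in sensory neurons, was chosen after its values were seen. It had 2, 3, 14 and 4 counts in Lmx1aE1-EGFP+ libraries and 88, 14, 6 and 22 counts in Sox3U3-EGFP+ libraries, which per library total did not overlap but were too few to pass the filter with all 8 libraries. Where it was tested, it was called lower without Sox3U3-EGFP replicate 3 (log2 fold change -2.09, adjusted p = 0.019) and with no filter (-1.85, adjusted p = 0.0301), and not in the other 4 settings (adjusted p 0.0515 to 0.126). The adaptor gene TRPC4AP was at 160 to 227 CPM in Lmx1aE1-EGFP+ libraries and 106 to 227 CPM in Sox3U3-EGFP+ libraries (log2 fold change 0.12, adjusted p = 0.746).

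Ion transport genes outside the naming stems were read from a pair of lists. Of 61 other channel genes in the table, 59 were tested, of which 3 were higher (LRRC8D, ORAI2 and ASIC1) and 7 lower by the adjusted p, where 12.1% of all tested genes were higher and 11.3% lower. The lower share was near that background, and the median log2 fold change was -0.30, beside -0.04 for all tested genes. SCNN1B, a subunit of the epithelial sodium channel, had 1.31, 3.18, 3.03 and 2.21 CPM in Lmx1aE1-EGFP+ libraries, against 9.36, 11.9, 9.14 and 12.9 CPM in Sox3U3-EGFP+ libraries. It was past both thresholds (log2 fold change -2.13, SE 0.273, adjusted p = 3.69e-05), whereas SCNN1A, the subunit needed for current through that channel, was not called (log2 fold change -0.15, adjusted p = 0.675). CLIC2, of the chloride intracellular channel family, was the other gene past both thresholds, with 11.4, 8.18, 7.27 and 14.8 CPM in Lmx1aE1-EGFP+ libraries and 29.6, 31.5, 35.7 and 50.6 CPM in Sox3U3-EGFP+ libraries (log2 fold change -1.81, SE 0.233, adjusted p = 5.12e-05). Both genes were separate between the groups. Of 43 ion pump and cotransporter genes in the table, 41 were tested, with 0 higher and 9 lower in edgeR's test (background 12.1% higher and 11.3% lower) and a median log2 fold change of -0.34. At an unadjusted p below 0.05 in edgeR's test, 2 were higher. By the adjusted p, 0 were higher with DESeq2 and 2 with limma-voom.

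Of the channel genes 142 of the 149 members were placed by symbol in the RefSeq annotation of GRCg7b, which is not the build of the counts and was used for neighbours and overlaps only. 16 pairs of members were direct neighbours there, of which 0 pairs had both genes called, 7 had 1 called and 9 had none. Some called genes had a neighbour with a smaller value, as KCNJ16 beside KCNJ2 (log2 fold changes -3.16 and -0.45) and KCNQ1 beside TRPM5 (-1.05 and -0.13). Others had a neighbour with a like value that was not called, as TRPA1 beside KCNB2 (-0.92 and -0.78, adjusted p = 0.0552 for KCNB2) and KCNJ15 beside KCNJ6 (-0.90 and -0.97, adjusted p = 0.154 for KCNJ6). Of 21 called members that were placed, 7 overlapped another annotated gene, and for KCNIP1 that gene, KCNMB1, codes for protein. These overlaps are of whole gene spans, and shared exons were not examined. Since no source gives a strand setting for the counting, it is not known whether reads in any shared exons were told apart. Counts of closely related paralogues could be shared in part.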

How the data were processed

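Bulk RNAseq libraries of 4 Lmx1aE1-EGFP+ and 4 Sox3U3-EGFP+ samples, described by the study as biological replicates, were analysed. The authors trimmed reads with Trim Galore, mapped them to galGal6 by STAR (NF-core pipeline) and counted them with featureCounts, and the deposited table holds raw counts per gene for all 8 libraries. The strand setting is not given in the sources used here, and no other data of the study were used. Genes were filtered with filterByExpr (16861 of 24356 kept), normalised by TMM and compared by edgeR 4.0.16 (glmQLFit with robust estimation, glmQLFTest; a quasi-likelihood test) in R 4.3.3, with group as the only term and Benjamini-Hochberg adjustment over all tested genes. Calls required an adjusted p under 0.05, alone or with a log2 fold change beyond 1.5 in either direction. Standard errors are the fold change over the root of F, and CPM values use TMM-scaled totals. The biological coefficient of variation was 0.225. A check for libraries deposited more than once gave a chi-square per degree of freedom of at least 3.6 over 28 pairs. Intervals and errors cover these samples only.

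Named genes were the members past both thresholds, those called by the adjusted p with separate groups, the top 2 of each class by mean CPM, and, of the 2 other ion transport lists, up to 3 past both thresholds. Some members are not reported here and are left out of the figures by gene, but stay in the counts. Others are marked as chosen after their values were seen. Members, lists and tests were chosen with earlier results of these data known. Alternatives were DESeq2 1.42.0, factors by RLE or none beyond the library size, a filter of 10 counts in each library or none, limma-voom with sample quality weights (limma 3.58.1; called limma-voom throughout), the replicate number as a block, thinning, each library left out, the deeper or shallower 2 libraries of each group, and a log2 fold change over 1. Of the marker lists not described in the report, heart muscle summed to 272 to 336 CPM in Lmx1aE1-EGFP+ and 169 to 378 CPM in Sox3U3-EGFP+ libraries (median log2 fold change -1.07, with 3 of 12 lower, NKX2-5, TNNT2 and TNNI1, and 1 higher, MYL4, which carries much of the sum), skeletal muscle summed to 22.2 to 35.6 CPM in Lmx1aE1-EGFP+ and 43.5 to 109 CPM in Sox3U3-EGFP+ libraries, pharyngeal endoderm to 19.4 to 30.8 CPM in Lmx1aE1-EGFP+ and 48.8 to 79 CPM in Sox3U3-EGFP+ libraries, mesenchyme to 861 to 976 CPM in Lmx1aE1-EGFP+ and 617 to 1170 CPM in Sox3U3-EGFP+ libraries (5 of 9 tested higher and 0 lower, median 0.78, with COL1A2, at a log2 fold change of -0.02, the largest part of the sum), and neural tube to 63.9 to 72.8 CPM in Lmx1aE1-EGFP+ and 35.6 to 74.1 CPM in Sox3U3-EGFP+ libraries.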

Additional observations from a re-analysis of the deposited data

Results flagged for a closer look

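In each group of 4 libraries, the highest or lowest library was compared with the nearest of the others, for each of the 46 named genes. In 2 of 92 groups the gap took more of the range of log2 CPM than Dixon's critical value allows, and about 4.6 would do so by chance (1 in 20). KCNIP1 was high in Sox3U3-EGFP replicate 1, at 5.26 CPM, where the gap was 0.888 of the range. GJC1 was high in Sox3U3-EGFP replicate 2, at 89.8 CPM, with a gap of 0.894 of the range.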

How the results depend on the processing

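With an absolute log2 fold change over 1, channel genes past both thresholds were 1 higher (GJB1) and 12 lower, and all genes 476 higher and 899 lower. With at least 10 counts in every library, which tests fewer genes, 4 channel genes and 225 of all genes were lower past both. The 2 shallower libraries of each group gave 198 of all genes higher past both, and 3 channel genes higher and 8 lower by the adjusted p. Channel genes higher past both were 1 with limma-voom with sample quality weights (KCNJ3, at 1.77), 2 with the deeper libraries (GJA5 at 3.16 and KCNJ3 at 2.38) and 0 to 1 when 1 library was left out (KCNS1 without Sox3U3-EGFP replicate 1, KCNJ3 without Sox3U3-EGFP replicate 4). When 1 library was left out, lower channel genes past both were 5 to 9, higher calls by the adjusted p 3 to 6, with 3 without Lmx1aE1-EGFP replicate 2, and lower calls 11 to 17.

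Same-numbered libraries did not deviate together (r from -0.233 to 0.046, and 1 of 8 libraries correlated best with its own number), so the replicate numbers were not used as pairs. The replicate block gave 1 channel gene higher past both (GJA5, at 1.75), 6 lower, and 5 higher and 13 lower by the adjusted p.

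Of the called named genes, GJB6, KCNK1, GJA1, GJB1, CLCN5, TRPM6, CACNA1E and KCNJ16 kept direction and call in all 18 settings. KCNF1, KCNIP1, KCNT1, KCNA2 and GJB5 lost the call in the shallower libraries (adjusted p 0.0788 to 0.343), and GJB5 lost it in the deeper libraries as well (adjusted p = 0.118). CACNG5 lost its call with library size only, limma-voom, the replicate block, and the deeper and shallower libraries. KCNJ15 lost it without a filter, with limma-voom, and in the deeper and shallower libraries. KCNQ1 lost it without a filter, with the replicate block, and in the deeper and shallower libraries. TRPA1 lost it with the replicate block and in the shallower libraries, and CACNA2D1 with the replicate block and in the deeper libraries.

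Genes that changed sign were not called with all 8 libraries or in the settings where the sign changed. CACNB4 was 0.008 with limma-voom and 0.003 after thinning, TRPM7 0.045 with limma-voom and 0.076 in the deeper libraries, CACNA2D3 0.101 and 0.069 in the same settings, and TRPC4AP -0.009 with limma-voom. CACNA1G was -0.047 with library size only, -0.025 with at least 10 counts, -0.052 after thinning and -0.055 in the deeper libraries. KCNAB2 was 0.009 with RLE factors, 0.027 without a filter, 0.008 with DESeq2, 0.002 after thinning and 0.112 in the deeper libraries. SCN4B was 0.014 without a filter, 0.022 with the replicate block, 0.156 after thinning and 0.138 in the shallower libraries. In those libraries TRPC1 was 0.035, KCNH6 -0.042, SCN3B -0.26 and KCND1 0.43. With 1 library left out, log2 fold changes ran from -0.278 to 0.064 for P2RX3, -0.34 to 0.108 for CACNB4, -0.132 to 0.202 for kcnma1, -0.181 to 0.049 for TRPC1, -0.104 to 0.041 for TRPM7, -0.255 to 0.002 for CACNA1D, -0.128 to 0.139 for CACNA2D3, -0.056 to 0.256 for TRPC4AP, -0.129 to 0.132 for CACNA1G, -0.192 to 0.002 for GJC1, -0.023 to 0.154 for KCNH6, -0.057 to 0.265 for SCN8A, -0.181 to 0.113 for KCNAB2, -0.171 to 0.155 for SCN4B and -0.206 to 0.065 for KCND1. The cause of these changes was not tested.

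Depth limited the low genes. 85 members had at least 10 counts in all 8 libraries, and 104 had over 3 after thinning, against 119 at full depth.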
